A study of Homo sapiens with 6 samples.

Results

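Sphingolipids are membrane lipids built on a sphingoid base, and the 37 genes described here encode the enzymes that make, convert and break down their central intermediate, ceramide, together with the small proteins that restrain its synthesis. The genes were taken as a named list of symbols and not by a threshold on measured values. All 37 were found among the 27685 genes of a table of read counts, and all 37 passed the filter on low counts, which kept 14640 genes. The counts came from polyA RNA of Caco-2 cells, a human colorectal tumour line with enterocyte features that is widely used as a model of the intestinal epithelium. One group of 3 libraries carried the empty vector pcDNA3 and is labelled genotype WT, and is called the vector control here. The other group of 3 libraries is labelled hFABP1as with the genotype FABP1_knockdown, and is called FABP1 antisense here. FABP1 is a cytosolic fatty acid binding protein of liver and intestine. The labels do not say whether each group is 1 clone or a pool, or whether its libraries are independent cultures. The p-values below rest on library-to-library spread alone, which may be technical. Libraries are named by the number in their column header, which runs from 2 to 4 in each group.

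De novo synthesis starts at the endoplasmic reticulum, where serine palmitoyltransferase joins serine to palmitoyl-CoA. The product is reduced, given a second fatty acid by a ceramide synthase and desaturated to ceramide, which is then turned into sphingomyelin, glycosphingolipids or ceramide 1-phosphate. Breakdown runs the other way, from sphingomyelin and glucosylceramide to ceramide, from ceramide to sphingosine, and from sphingosine to sphingosine 1-phosphate, a signalling lipid that is finally cleaved or dephosphorylated. In the intestine, complex sphingolipids are abundant in the apical brush border membrane.

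The libraries held 40351394 to 57979037 counts. The targeted gene itself was not lower in the antisense group: FABP1 stood at 138, 102 and 121 CPM (read counts relative to library size, with TMM factors) in vector control libraries 2, 3 and 4 and at 134, 147 and 122 CPM in antisense libraries 2, 3 and 4. Its log2 fold change, antisense minus control as everywhere below, was 0.16 (SE 0.12, 95% interval -0.10 to 0.42, adjusted p = 0.268, from the quasi-likelihood test of edgeR adjusted by Benjamini-Hochberg over all tested genes). The groups overlapped. Since the use of strand in counting is not stated, reads from an antisense construct may be among these counts, which was not tested. Every direction below therefore refers to libraries labelled FABP1 antisense and not to a measured fall of FABP1 mRNA. The whole transcriptome differed between the groups, with adjusted p under 0.05 for 4062 genes that were higher and 3992 that were lower. All 9 epithelial and intestinal markers were detected, with a summed level of 14662 to 17976 CPM in the control libraries and 16472 to 19366 CPM in the antisense libraries, with overlap. Among them CDH17 (log2 fold change 1.32), CDX2 (1.09), KRT18 (0.27) and CDH1 (0.20) rose, KRT19 (-0.51) and VIL1 (-0.20) fell, and EPCAM, KRT8 and HNF4A did not pass. Of 6 leukocyte markers PTPRC was at 0 in every library, and the sum was 30.9 to 35.5 against 37.7 to 41.4 CPM. Of 6 fibroblast markers COL1A2, DCN and THY1 were at 0, and the sum was 13.4 to 16.8 against 26.4 to 30.8 CPM. Of 3 endothelial markers CDH5 was at 0, and the sum was 0.833 to 1.42 against 2.39 to 2.67 CPM. Among the fibroblast markers LUM rose from a mean of 0.133 to 18.1 CPM, PDGFRB fell from 6.69 to 3.06 CPM and COL1A1, at 8.32 and 8.05 CPM, did not pass. Among the leukocyte markers CD68 and CSF1R rose and CD14 fell. The leukocyte, fibroblast and endothelial sums did not overlap between the groups, and their part in the results below was not tested.

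Of the 37 genes, 12 rose, 10 fell and 15 did not pass the test. The 22 that passed are 59.5% of the 37, beside 55.0% of all tested genes (27.7% higher and 27.3% lower), so the share of genes called was near the background. Changes of at least 2-fold were made by 4 of the 37, or 10.8%, beside 14.9% of all tested genes. The groups did not overlap for 26 of the 37 (70.3%), beside 62.7% of all tested genes. The median log2 fold change was 0.16 over the 37 and 0.01 over all tested genes. The differences were therefore spread over both directions, and they are described gene by gene in the order of the pathway. In bulk RNA, fewer cells with a transcript and less transcript per cell cannot be told apart.

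**Figure D1:**
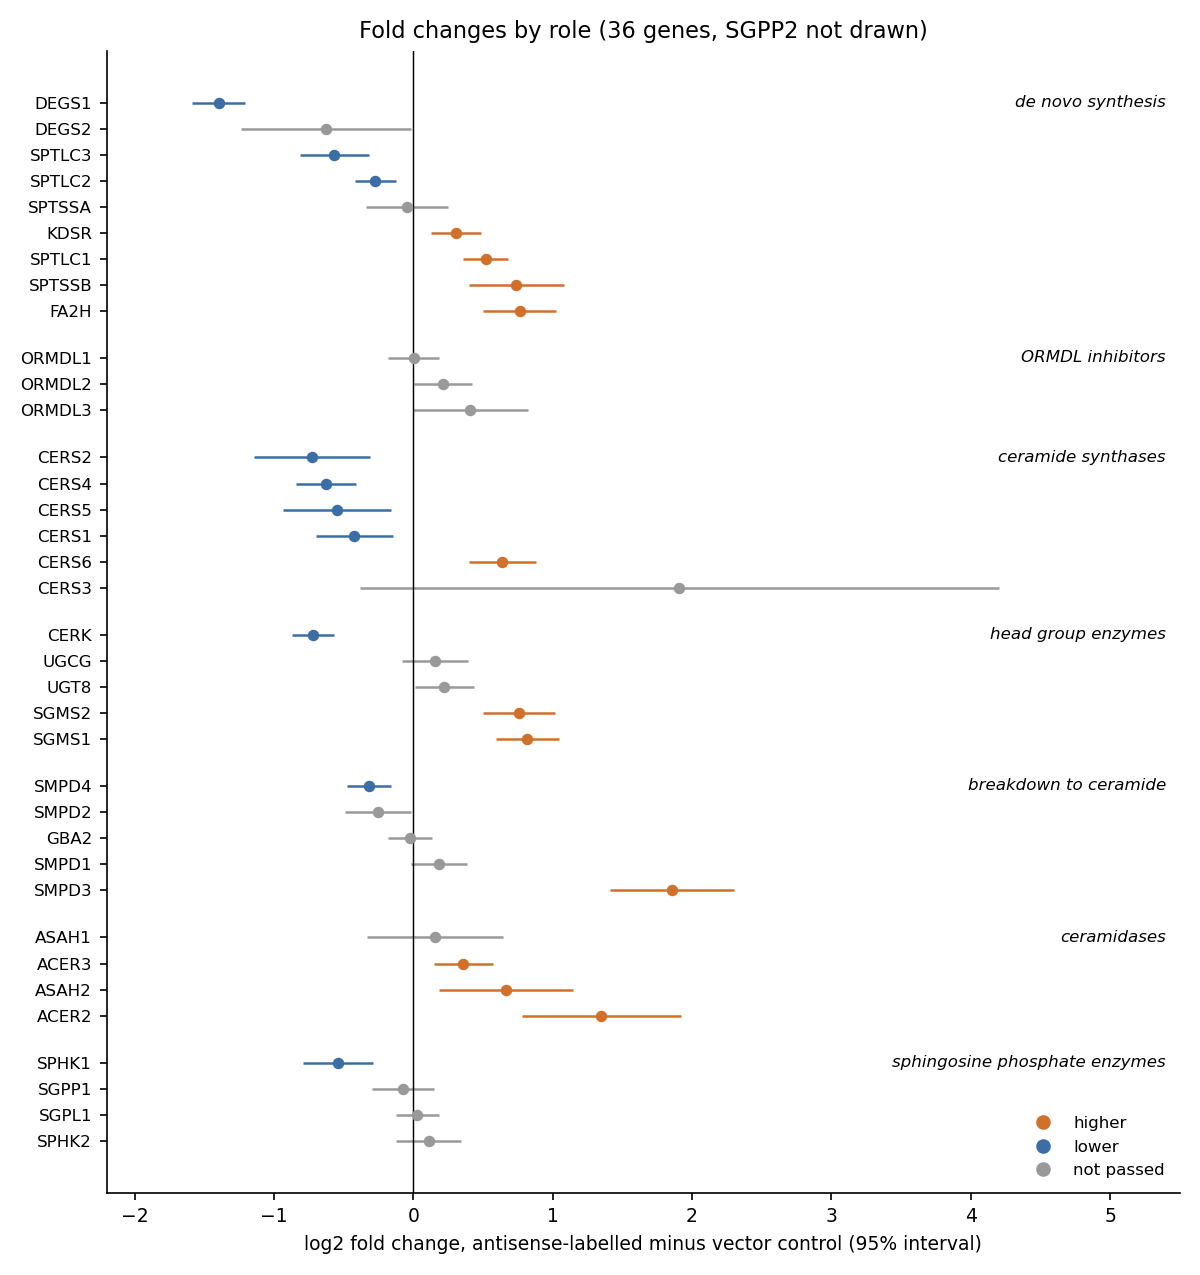
Log2 fold change (antisense-labelled minus vector control, x axis) of 36 of the 37 genes, grouped by role, with the 95% interval as a bar and colours for genes called higher, lower or not passed. DEGS1 at -1.40 lies furthest left and SMPD3 at 1.86 furthest right among genes that passed; SGPP2, with 0 control counts, is not drawn.

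The promoters of 6 genes whose counts differed clearly are shown for reference, since these are the stretches just upstream of where transcription starts: the desaturase DEGS1, the ceramide synthase CERS6, the sphingomyelin synthases SGMS1 and SGMS2, the alkaline ceramidase ACER2 and the phosphatase SGPP2. Each is the 250 bases before the start, 5′ to 3′ on the gene's own strand, from RefSeq on GRCh38.p14, at chr1:224182990-224183239 (+), chr2:168456022-168456271 (+), chr10:50623957-50624206 (-), chr4:107824313-107824562 (+), chr9:19408759-19409008 (+) and chr2:222424293-222424542 (+). Capitals mark matches on either strand to the GC box, searched as GGGCGG. They also mark the box named for its letters CCAAT, the nuclear receptor site AGGTCA and the TATA box, searched as TATAAA.
DEGS1: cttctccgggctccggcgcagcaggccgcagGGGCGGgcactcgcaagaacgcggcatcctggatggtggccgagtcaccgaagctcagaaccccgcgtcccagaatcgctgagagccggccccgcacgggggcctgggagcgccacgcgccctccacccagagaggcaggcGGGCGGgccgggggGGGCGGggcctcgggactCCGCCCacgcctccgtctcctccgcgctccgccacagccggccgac
CERS6: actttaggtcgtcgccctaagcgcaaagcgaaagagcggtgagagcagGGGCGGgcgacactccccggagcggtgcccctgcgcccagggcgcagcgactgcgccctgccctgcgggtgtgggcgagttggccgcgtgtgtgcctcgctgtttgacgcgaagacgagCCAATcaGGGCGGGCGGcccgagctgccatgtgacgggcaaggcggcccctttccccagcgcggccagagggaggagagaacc
SGMS1: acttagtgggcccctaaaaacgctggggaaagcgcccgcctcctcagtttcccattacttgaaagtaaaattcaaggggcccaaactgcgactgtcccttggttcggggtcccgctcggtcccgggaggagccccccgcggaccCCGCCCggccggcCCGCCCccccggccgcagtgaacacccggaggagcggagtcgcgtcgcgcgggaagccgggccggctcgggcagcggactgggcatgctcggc
SGMS2: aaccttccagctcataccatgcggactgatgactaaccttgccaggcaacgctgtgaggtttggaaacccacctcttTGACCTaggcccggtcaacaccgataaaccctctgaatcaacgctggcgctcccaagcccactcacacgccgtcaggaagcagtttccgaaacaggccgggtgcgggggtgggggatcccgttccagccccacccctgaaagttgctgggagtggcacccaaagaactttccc
ACER2: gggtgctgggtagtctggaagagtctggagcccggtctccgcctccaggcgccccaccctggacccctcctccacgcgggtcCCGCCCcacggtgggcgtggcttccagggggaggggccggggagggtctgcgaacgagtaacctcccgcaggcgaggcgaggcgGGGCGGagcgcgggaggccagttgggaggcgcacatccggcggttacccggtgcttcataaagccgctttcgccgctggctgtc
SGPP2: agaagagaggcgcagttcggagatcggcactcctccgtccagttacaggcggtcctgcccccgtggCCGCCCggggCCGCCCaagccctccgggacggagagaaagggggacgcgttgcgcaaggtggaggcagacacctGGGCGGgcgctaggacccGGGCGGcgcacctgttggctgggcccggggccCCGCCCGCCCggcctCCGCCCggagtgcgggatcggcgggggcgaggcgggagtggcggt
Counting overlapping matches, the GC box occurred 4 times before DEGS1, 3 times before CERS6, 2 times each before SGMS1 and ACER2, 7 times before SGPP2 and 0 times before SGMS2. The nuclear receptor site occurred once, before SGMS2, and the CCAAT box once, before CERS6.

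RefSeq promoters were matched for 30 of the 37 genes, and 7 were not matched (SPTLC3, CERS2, CERS4, CERK, SMPD3, ASAH1 and SGPP1). A GC box was found in 25 of the 30, or 83.3%, beside 42.6% of the 35116 starts in the table. These sets are unlike. The 30 are 1 start per gene, the one nearest the annotated gene start, and all their genes passed the count filter. The 35116 are all starts listed, with no filter on expression, so the gap cannot be read as particular to sphingolipid genes. The median GC content was 70.6% in the 30 and 58.0% over all starts. The GC box was held by 9 of 11 genes that rose, 5 of 6 that fell and 11 of 13 that did not pass, so it was found whatever the direction. A CCAAT box was found in 8 of the 30 (26.7%, all starts 32.0%), a nuclear receptor site in 3 (ASAH2, SGMS2 and SMPD1; 10.0%, all starts 12.1%) and the E-box CACGTG in 1 (UGT8; 3.33%, all starts 6.34%). No TATA box was found in this window (all starts 10.7%), nor the nuclear receptor repeat DR1, 2 copies of AGGTCA with 1 base between (all starts 0.0171%) or the CDX letters TTTATGG (all starts 2.295%).

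In de novo synthesis, 9 genes were measured, of which 4 rose, 3 fell and 2 did not pass. The subunits of serine palmitoyltransferase moved in different directions. SPTLC1, the subunit that every form of the enzyme contains, stood at 55.4, 58.3 and 51.3 CPM in the control libraries and at 78.1, 78.0 and 80.7 CPM in the antisense libraries. Its mean rose from 55.0 ± 3.52 to 78.9 ± 1.52 CPM (SD, n = 3), a log2 fold change of 0.52 (SE 0.07, adjusted p = 0.000353), and each antisense library was above each control library. SPTLC2, the catalytic partner that favours palmitoyl-CoA, stood at 94.0, 101 and 95.5 CPM against 79.6, 79.2 and 81.6 CPM and fell by 0.27 on the log2 scale (SE 0.06, adjusted p = 0.00637). SPTLC3, the alternative catalytic partner that accepts shorter acyl-CoAs, stood at 25.5, 28.3 and 22.5 CPM against 15.3, 18.3 and 17.9 CPM. It fell by 0.57 on the log2 scale (SE 0.11, adjusted p = 0.00219), and the groups did not overlap. The ratio of SPTLC3 to SPTLC2 counts was 0.262 ± 0.0236 in control and 0.214 ± 0.0195 in antisense libraries (SD, n = 3), without overlap.

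The small subunits SPTSSA and SPTSSB raise the activity of serine palmitoyltransferase and shift its acyl-CoA preference. SPTSSB stood at 2.85, 3.18 and 2.75 CPM in control and 4.20, 5.39 and 5.07 CPM in antisense libraries, and rose with a log2 fold change of 0.74 (SE 0.15, adjusted p = 0.00288). SPTSSA stood at 21.2, 22.4 and 16.1 CPM and 17.8, 18.8 and 21.2 CPM, with a log2 fold change of -0.04 (95% interval -0.34 to 0.25, adjusted p = 0.794) and overlapping groups. The ratio of SPTSSB to SPTSSA counts was 0.149 ± 0.0194 in control and 0.254 ± 0.0282 in antisense libraries (SD, n = 3), again without overlap. KDSR, which reduces the first product, 3-ketodihydrosphingosine, stood at 18.4, 18.9 and 18.7 CPM against 22.7, 21.8 and 24.8 CPM and rose with a log2 fold change of 0.31 (SE 0.08, adjusted p = 0.0104).

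DEGS1, the desaturase that inserts the double bond turning dihydroceramide into ceramide, made the furthest fall among the 37 genes. It stood at 76.0, 79.6 and 76.6 CPM in the control libraries and at 29.1, 26.9 and 32.2 CPM in the antisense libraries, so that the lowest control library lay above the highest antisense library by more than the spread within either group. The mean went from 77.4 ± 1.96 to 29.4 ± 2.66 CPM (SD, n = 3), 2.63-fold lower by the fit, with a log2 fold change of -1.40 (SE 0.08, 95% interval -1.58 to -1.21, adjusted p = 2.18e-06). DEGS2, a related enzyme that can also hydroxylate to give phytoceramide, a lipid of intestinal epithelium, stood at 1.51, 1.57 and 1.56 CPM against 0.947, 1.34 and 0.729 CPM. Its log2 fold change of -0.63 (95% interval -1.23 to -0.02) had an adjusted p of 0.0762. Without antisense library 3 it passed, at -0.89 with an adjusted p of 0.0292. FA2H, which adds the 2-hydroxyl group found on many epithelial and myelin sphingolipids, stood at 7.22, 6.10 and 7.17 CPM against 10.5, 12.9 and 11.4 CPM and rose with a log2 fold change of 0.77 (SE 0.12, adjusted p = 0.000578).

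None of the 3 ORMDL genes passed the test; their proteins bind serine palmitoyltransferase and hold back its activity when ceramide is plentiful. ORMDL1 stood at 54.2, 52.3 and 47.4 CPM against 49.5, 50.02 and 54.7 CPM, a log2 fold change of 0.00 (95% interval -0.18 to 0.19). ORMDL2 stood at 29.3, 24.9 and 30.6 CPM against 34.0, 32.2 and 32.2 CPM, without overlap, a log2 fold change of 0.21 (95% interval 0.01 to 0.42, adjusted p = 0.0768). ORMDL3 stood at 42.2, 39.2 and 67.6 CPM against 67.3, 68.2 and 62.4 CPM. Control library 4 was apart from the other control libraries, at 166% of their mean and inside the antisense range. With all libraries the log2 fold change of ORMDL3 was 0.41 (SE 0.18, adjusted p = 0.0860), and without control library 4 it was 0.69 (adjusted p = 0.000344). Leaving out the same library gave ORMDL2 a log2 fold change of 0.27 (adjusted p = 0.0483). With all libraries kept, ORMDL3 passed by DESeq2.

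The 6 ceramide synthases each attach acyl chains of a preferred length, and here 4 of them fell, 1 rose and 1 did not pass. CERS6, which prefers palmitoyl-CoA and makes long-chain ceramides, was the one that rose. It stood at 92.6, 109.6 and 89.1 CPM in control and 141, 142 and 170.1 CPM in antisense libraries, from a mean of 97.1 ± 10.9 to 151 ± 16.4 CPM (SD, n = 3), with a log2 fold change of 0.64 (SE 0.11, adjusted p = 0.000949). Each antisense library lay above each control library. CERS2, which makes very-long-chain ceramides and is widely expressed, stood at 436, 427 and 248 CPM against 227, 223 and 221 CPM and fell by 0.73 on the log2 scale (SE 0.18, 95% interval -1.14 to -0.31, adjusted p = 0.00926). Control library 4 stood at 57.4% of the mean of the other control libraries, close to the antisense level but still above it. Only 47 of 9475 genes at 10 CPM or more (0.496%) had control library 4 as far from the other two. Without that library CERS2 had a log2 fold change of -0.95 (adjusted p = 1.71e-05), and without control library 2 it had -0.59 (adjusted p = 0.0401).

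CERS4, which prefers saturated long to very long chains, stood at 30.5, 29.3 and 34.2 CPM against 22.2, 19.1 and 19.6 CPM and fell by 0.63 on the log2 scale (SE 0.09, adjusted p = 0.000556). CERS5, a second synthase for palmitoyl-CoA, stood at 46.4, 44.9 and 48.1 CPM against 22.2, 36.3 and 37.0 CPM, with a log2 fold change of -0.55 (SE 0.17, adjusted p = 0.0236). Antisense library 2 was at 60.6% of the mean of the other antisense libraries. Without it the log2 fold change of CERS5 was -0.34 (adjusted p = 0.0118), while the call was lost without control library 2 (adjusted p = 0.0622) or control library 4 (adjusted p = 0.0579). CERS1, the stearoyl-CoA synthase best known from brain and muscle, stood at 23.9, 18.2 and 24.2 CPM against 15.1, 17.7 and 16.7 CPM, with a log2 fold change of -0.42 (SE 0.12, adjusted p = 0.0169). The call on CERS1 was lost without control library 2 (adjusted p = 0.0706), control library 4 (0.0527) or antisense library 2 (0.0657). In GENCODE v29, 67.1% of its exon bases are shared on the same strand with GDF1, so the counts of CERS1 are uncertain. CERS3, the synthase of ultra-long chains known from skin and testis, had 10 counts in the control group, all in control library 3, and 40 in the antisense group. It did not pass, at an adjusted p of 0.140, and it passed without control library 3 (adjusted p = 0.0036).

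**Figure D2:**
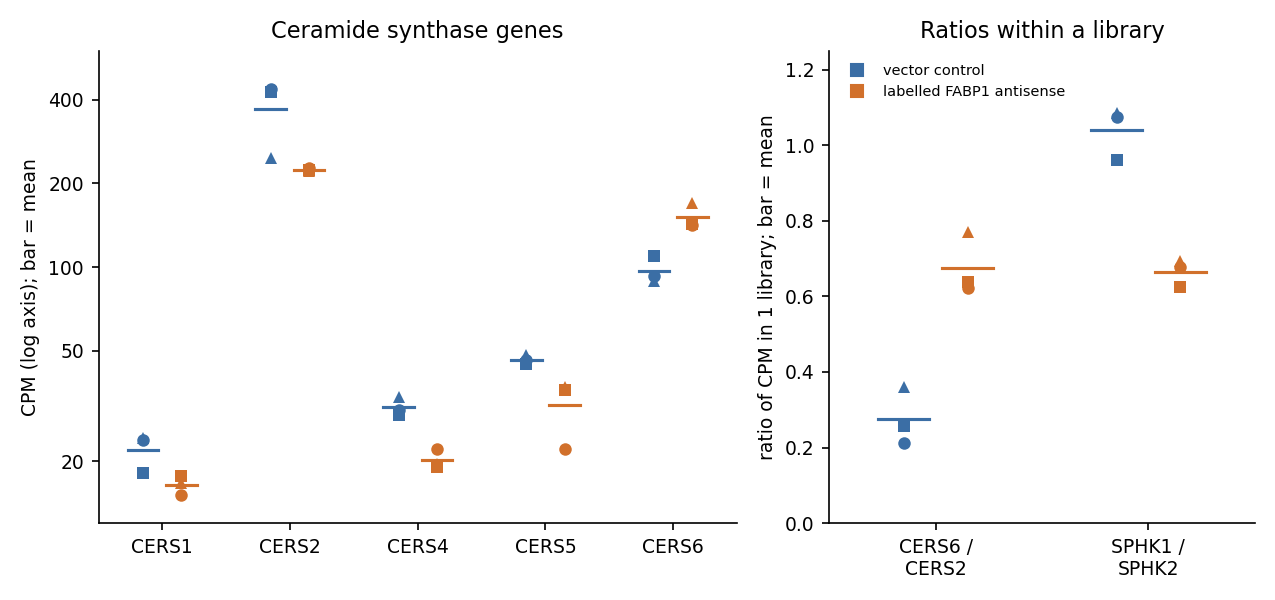
Left, CPM (log axis, not corrected for length) of CERS1, CERS2, CERS4, CERS5 and CERS6, and right, the ratios of CERS6 to CERS2 and of SPHK1 to SPHK2 CPM within each library, with 1 point per library (circle, square and triangle for libraries 2, 3 and 4) and a bar at the group mean. CERS6 to CERS2 lies between 0.212 and 0.360 in vector control (blue) and between 0.621 and 0.770 in antisense-labelled libraries (orange), and CERS2 in control library 4 lies close to the antisense points.

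The ratio of CERS6 to CERS2 counts within a library was 0.212, 0.257 and 0.360 in control libraries 2, 3 and 4 and 0.621, 0.638 and 0.770 in antisense libraries 2, 3 and 4. The mean went from 0.276 ± 0.0757 to 0.676 ± 0.0815 (SD, n = 3), without overlap, and control library 4 was the highest of its group. This ratio restates the rise of CERS6 and the fall of CERS2. Per kilobase of the longest coding transcript, CERS2 made up 71.3 ± 7.36% of the summed level of the 6 synthases in control and 63.9 ± 2.26% in antisense libraries (SD, n = 3), with overlap. CERS6 made up 6.82 ± 1.15% and 15.2 ± 1.35%, without overlap. CERS2 thus stayed the synthase with the highest transcript level per length in both groups, as it did with the median transcript length.

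Of the 5 enzymes that add a head group to ceramide, SGMS1 and SGMS2 rose, CERK fell, and UGCG and UGT8 did not pass. SGMS1, the sphingomyelin synthase of the Golgi, stood at 18.0, 18.9 and 15.3 CPM in control and 29.6, 29.4 and 33.0 CPM in antisense libraries. Its mean rose from 17.4 ± 1.89 to 30.7 ± 2.05 CPM (SD, n = 3), with a log2 fold change of 0.82 (SE 0.10, adjusted p = 0.000171). SGMS2, the synthase that also acts at the plasma membrane, stood at 8.93, 11.5 and 9.55 CPM against 15.6, 16.8 and 18.3 CPM and rose with a log2 fold change of 0.76 (SE 0.11, adjusted p = 0.000592). Both sphingomyelin synthases were thus higher in each antisense library than in each control library. CERK, the kinase that makes ceramide 1-phosphate, stood at 83.6, 86.9 and 88.2 CPM against 53.3, 50.4 and 53.4 CPM and fell by 0.72 on the log2 scale (SE 0.07, adjusted p = 3.08e-05).

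UGCG, which makes glucosylceramide and so opens the way to most glycosphingolipids, stood at 40.9, 40.1 and 33.8 CPM against 40.3, 40.1 and 47.8 CPM. Its log2 fold change was 0.16 (95% interval -0.08 to 0.40, adjusted p = 0.226), and the groups overlapped. UGT8, which makes galactosylceramide, stood at 90.7, 101 and 80.0 CPM against 100.1, 106 and 111 CPM, with a log2 fold change of 0.22 (SE 0.09, adjusted p = 0.0691). UGT8 passed without control library 3 (adjusted p = 0.0151) and by DESeq2 with all libraries (adjusted p = 0.0489). The ratio of SGMS1 to UGCG counts was 0.454 ± 0.0147 in control and 0.719 ± 0.0243 in antisense libraries (SD, n = 3), without overlap. These genes stand at the first steps toward sphingomyelin and toward glucosylceramide. The ratio restates the rise of SGMS1 beside UGCG, which did not pass, and is not separate support for a shift.

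Among the 5 enzymes that return complex sphingolipids to ceramide, SMPD3 rose, SMPD4 fell and 3 did not pass. SMPD3, a neutral sphingomyelinase linked to ceramide formation at the Golgi and plasma membrane and to exosome release, was low in both groups. It stood at 2.48, 1.91 and 1.40 CPM in control and 7.38, 6.999 and 6.79 CPM in antisense libraries, and its mean rose from 1.93 ± 0.543 to 7.06 ± 0.301 CPM (SD, n = 3). The fitted rise was 3.62-fold, a log2 fold change of 1.86 (SE 0.20, 95% interval 1.41 to 2.304, adjusted p = 7.48e-05). SMPD4, a neutral sphingomyelinase of the endoplasmic reticulum and nuclear envelope, stood at 314, 307 and 344 CPM against 269, 258 and 248 CPM and fell by 0.32 on the log2 scale (SE 0.07, adjusted p = 0.00464). The sphingomyelinases that passed therefore moved in opposite directions, and the gene with the much lower count was the one that rose.

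SMPD1, the acid sphingomyelinase of lysosomes, stood at 11.4, 12.8 and 12.8 CPM against 13.9, 14.7 and 13.4 CPM, without overlap but with an adjusted p of 0.102 for a log2 fold change of 0.19. SMPD2, another neutral sphingomyelinase, stood at 33.6, 32.0 and 38.1 CPM against 31.9, 29.4 and 25.8 CPM, with a log2 fold change of -0.25 (SE 0.10, adjusted p = 0.0655). It passed without control library 3 (adjusted p = 0.0450) or without antisense library 2 (adjusted p = 0.0471). GBA2, the glucosylceramidase outside lysosomes, stood at 81.2, 77.6 and 86.7 CPM against 80.9, 82.6 and 78.3 CPM, a log2 fold change of -0.02 (95% interval -0.18 to 0.14).

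Of the 4 ceramidases, which release sphingosine from ceramide, ACER2, ACER3 and ASAH2 rose and ASAH1 did not pass. ACER2, the alkaline ceramidase of the Golgi, stood at 0.521, 0.735 and 0.675 CPM in control and 1.38, 1.74 and 1.76 CPM in antisense libraries. Its fitted rise was 2.55-fold, a log2 fold change of 1.35 (SE 0.25, 95% interval 0.78 to 1.92, adjusted p = 0.00189), from a low level of 89 counts over the control group. ACER3, which prefers ceramides with unsaturated chains, stood at 37.1, 41.9 and 36.4 CPM against 49.1, 44.8 and 54.1 CPM and rose with a log2 fold change of 0.36 (SE 0.09, adjusted p = 0.0106). ASAH2, the neutral ceramidase of the intestinal brush border, stood at 1.42, 1.40 and 1.05 CPM against 1.82, 2.08 and 2.24 CPM, with a log2 fold change of 0.67 (SE 0.21, adjusted p = 0.0260). Its call was lost under 5 of 12 alternatives, among them the omission of control library 4 (adjusted p = 0.0782), antisense library 3 (0.0671) or antisense library 4 (0.0903). ASAH2B, a related gene that may share some of its reads, rose from 5.42 ± 0.740 to 8.14 ± 0.914 CPM (SD, n = 3). The split of reads between these genes is uncertain. ASAH1, the acid ceramidase of lysosomes, stood at 39.4, 59.3 and 54.5 CPM against 46.2, 47.3 and 77.1 CPM, with a log2 fold change of 0.16 (SE 0.21, adjusted p = 0.561). Antisense library 4 was at 165% of the mean of the other antisense libraries for ASAH1, and the groups overlapped.

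The 5 enzymes of sphingosine 1-phosphate include 1 that rose, SGPP2, and 1 that fell, SPHK1. SPHK1, the mainly cytosolic sphingosine kinase that is often high in tumours, stood at 99.1, 84.3 and 113 CPM in control and 71.2, 70.5 and 62.0 CPM in antisense libraries. Its mean went from 98.8 ± 14.4 to 67.9 ± 5.12 CPM (SD, n = 3), a fall of 0.54 on the log2 scale (SE 0.11, adjusted p = 0.00316) without overlap. SPHK2, the kinase also found in the nucleus and mitochondria, stood at 92.2, 87.6 and 104 CPM against 105, 113 and 89.3 CPM, a log2 fold change of 0.11 (95% interval -0.12 to 0.35). The ratio of SPHK1 to SPHK2 counts was 1.07, 0.962 and 1.08 in control libraries 2, 3 and 4 and 0.677, 0.626 and 0.694 in antisense libraries 2, 3 and 4, so the groups did not overlap.

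SGPP2, a phosphatase of the endoplasmic reticulum that turns sphingosine 1-phosphate back into sphingosine, had 0 counts in each control library. The antisense libraries held 60 counts in all, at 0.461, 0.268 and 0.515 CPM. Against a floor of 3 counts over the control group, 0.0212 CPM, the antisense level was at least 19.9-fold higher (adjusted p = 0.000888). SGPP2 passed the count filter only through the antisense group, so that p-value is not separate support for a difference. SGPP2 and CERS3 were the lowest of the 37 genes per kilobase in both groups. SGPP1, the related phosphatase, stood at 21.1, 22.8 and 19.8 CPM against 20.3, 18.1 and 21.9 CPM, a log2 fold change of -0.07 (95% interval -0.29 to 0.15). SGPL1, the lyase that cleaves sphingosine 1-phosphate irreversibly, stood at 86.8, 94.96 and 96.5 CPM against 96.9, 93.5 and 93.6 CPM, a log2 fold change of 0.03 (95% interval -0.13 to 0.19).

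**Figure D3:**
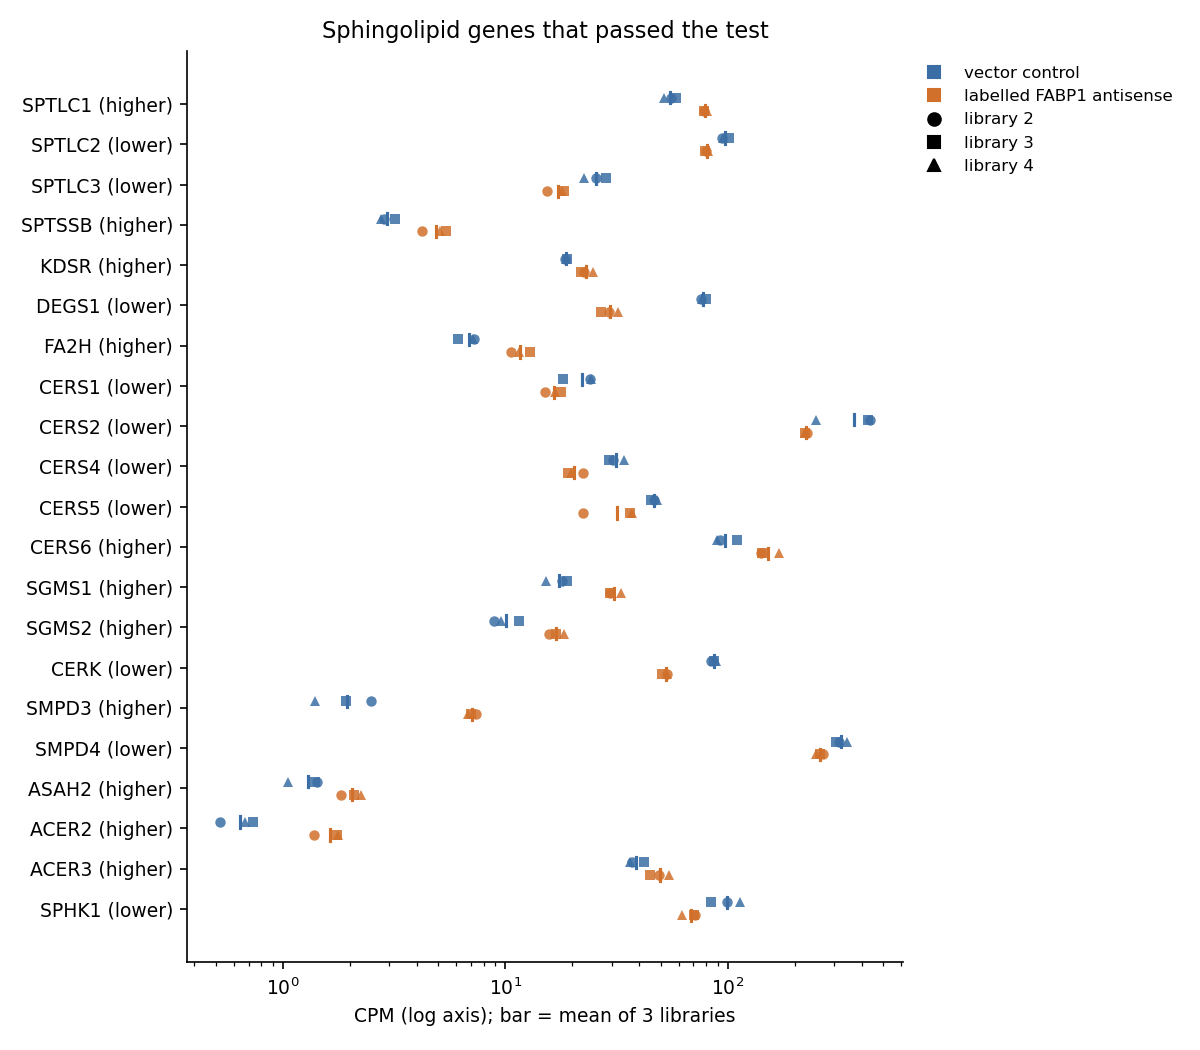
CPM (log axis, not corrected for length) of the 21 genes that passed the test and reached a mean of 1 CPM in a group, with 1 point per library (circle, square and triangle for libraries 2, 3 and 4) and a bar at the mean of each group of 3. Control points (blue) and antisense-labelled points (orange) do not overlap for any of the 21, beside no overlap for 62.7% of all tested genes. Selection by the test favours this, so it is not a separate result. CERS2 in control library 4 and CERS5 in antisense library 2 lie apart from their groups.

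Levels of different genes were compared per kilobase of coding transcript, and much of their order depended on which transcript length was taken. With the longest transcript, CERS2 was the highest of the 37 genes in the control libraries, at 145 ± 41.7 CPM per kb, followed by SMPD4 at 65.8 ± 4.02, SPHK1 at 44.2 ± 6.44 and DEGS1 at 36.8 ± 0.93 CPM per kb (SD, n = 3). The control libraries of SPHK1 and DEGS1 overlapped on this scale, so those neighbours in the order did not differ beyond their spread. In the antisense libraries CERS2 stood at 88.0 ± 1.28 and SMPD4 at 52.7 ± 2.14 CPM per kb (SD, n = 3). With the median transcript length their order turned in that group, to 274.7 ± 11.2 CPM per kb for SMPD4 and 223 ± 3.26 for CERS2 (SD, n = 3), and SGPL1 had rank 3 in both groups in place of rank 16 and 13. DEGS1 went from rank 4 in control to rank 15 in antisense libraries with the longest transcript, and from 4 to 18 with the median length. CERS6 went from rank 17 to rank 9 with the longest and from 21 to 19 with the median length. The lowest 6 in the control group were DEGS2, SMPD3, ACER2, ASAH2, CERS3 and SGPP2 with either length.

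Neighbours in gene order were set beside each gene that passed, to show whether the stretch of the genome around a gene moved with it. Each stretch was summarised as the median log2 fold change of up to 50 tested genes on either side. For 17 of the 22 genes that passed, the neighbours' median had the gene's own sign, and for 7 it was at least 0.2 in size and of that sign. The same counts were not made over all tested genes, so they cannot be read as particular to the sphingolipid genes. No gene that passed had a change as small as its neighbours' median. This says little, since passing the test selects larger changes and a median over many genes evens out single ones. Around CERS2 the median was -0.35 beside a log2 fold change of -0.73 for the gene. Around CERK it was -0.34 beside -0.72, and around SPHK1 -0.25 beside -0.54. Around DEGS1 it was -0.20 beside -1.40, with 72% of its neighbours lower. The spread of single neighbours around these medians was not measured. Around SGMS1 and SGMS2 it was 0.26 and 0.20 beside 0.82 and 0.76, and around ASAH2 0.27 beside 0.67. CERS6 rose where the median was -0.08, and CERS5 fell where it was 0.33. The part of these stretches in the changes of single genes was not tested.

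**Figure D4:**
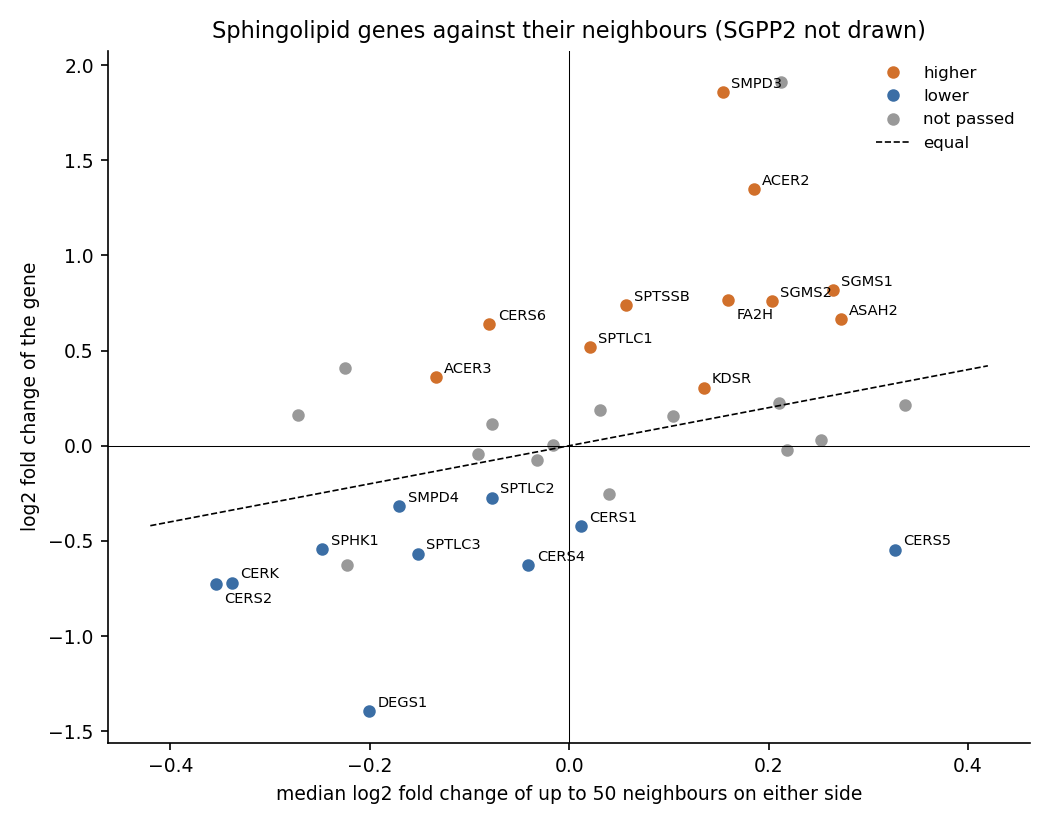
Log2 fold change of 36 of the 37 genes (y axis) against the median log2 fold change of up to 50 neighbours on either side in gene order (x axis), coloured by call, with a dashed line where both are equal; SGPP2 is not drawn. The medians span -0.35 to 0.34, and DEGS1, SMPD3 and ACER2 lie far from the dashed line.

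Exon overlap with another gene limits some of these counts, since the sources used here do not say if reads were counted by strand. CERS6 overlaps CERS6-AS1, which stood at or below 0.104 CPM in every library. CERS2 shares 20.4% of its exon bases with SETDB1 on the opposite strand, which stood at 49.3, 48.4 and 48.4 CPM against 39.2, 37.6 and 36.7 CPM. SMPD4 shares 11.1% with MZT2B, at 182, 134 and 179 CPM against 155, 149 and 127 CPM. ORMDL2 shares 32.7% with DNAJC14, at 46.3, 51.2 and 50.5 CPM against 73.6, 77.8 and 73.9 CPM. SETDB1 and DNAJC14 did not overlap between the groups, while MZT2B did. SPHK2 shares 4.09% with RPL18, at 566, 487 and 578 CPM against 579.7, 551 and 497 CPM, which bears on its ratio with SPHK1, and 11% with DBP, at 4.48 to 6.32 CPM in all libraries. SMPD2 shares 20.3% with PPIL6, at most 0.364 CPM. SMPD3 shares 3.34% with PRMT7, at 84.7, 78.4 and 93.7 CPM against 70.1, 63.8 and 58.2 CPM. SPHK1 shares 1.34% with PRPSAP1, at 67.9, 68.6 and 71.9 CPM against 44.2, 43.0 and 39.1 CPM. For CERS2, SMPD4, ORMDL2, SPHK2, SMPD2, SMPD3 and SPHK1 the part of the partner's reads was not tested.

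The wider pathway was described with 6 lists of genes around the 37, of which 90 were in the table and 75 passed the filter. Of the 75, 26 rose, 20 fell and 29 did not pass. The 61.3% that passed stand beside the same 55.0% of all tested genes. Changes of at least 2-fold were made by 17 of the 75 (22.7%), beside 14.9% of all tested genes. No list moved in 1 direction, and the genes named below are among those with the furthest changes at 1 CPM or more in a group.

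Glycosphingolipid chain building, the Golgi steps after UGCG, had 6 genes that rose, 3 that fell and 5 that did not pass of 14. B3GALT5, which makes type 1 chains of the lacto series in gut epithelium, had 0 counts in the control group and 381 in the antisense group, at 1.82, 2.75 and 3.25 CPM. That is at least 126-fold higher (adjusted p = 3.23e-05) against the floor of 3 counts. B3GALT5 too passed the count filter only through the antisense group, so its p-value is not separate support for a difference. ST3GAL1, a sialyltransferase, rose from 0.441 ± 0.107 to 1.03 ± 0.0775 CPM (SD, n = 3), a log2 fold change of 1.23 (SE 0.29, adjusted p = 0.00638). ST6GALNAC6, which adds sialic acid to make alpha-series gangliosides, went from 41.2 ± 3.30 to 17.5 ± 0.499 CPM (SD, n = 3) and fell by 1.24 on the log2 scale (adjusted p = 4.84e-06), where the neighbours' median was -0.44.

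Lysosomal and other sphingolipid breakdown had 6 genes that rose, 8 that fell and 7 that did not pass of 21. NEU4, a sialidase, stood at 18.1, 13.8 and 21.1 CPM in the control libraries and at 0.170, 0 and 0 CPM in the antisense libraries, with 2510 against 7 counts, and all 7 of the latter lay in antisense library 2. Its log2 fold change was -8.40 (adjusted p = 2.10e-06), a value that depends on those 7 counts, being -12.74 without antisense library 2. GBA3, a cytosolic beta-glucosidase, rose from 0.135 ± 0.0566 to 1.37 ± 0.114 CPM (SD, n = 3). Among enzymes acting on sulfatide and sphingomyelin, ARSA fell from 11.4 ± 2.07 to 3.72 ± 0.387 CPM with a log2 fold change of -1.61 (SE 0.16, adjusted p = 4.43e-05). ENPP7, the alkaline sphingomyelinase of the intestinal brush border that digests dietary sphingomyelin, stood at 2.43, 2.45 and 2.68 CPM against 0.729, 0.760 and 0.515 CPM, a log2 fold change of -1.92 (SE 0.23, adjusted p = 0.000148). SMPDL3A, a relative of acid sphingomyelinase that acts on nucleotides, rose from 2.39 ± 0.360 to 8.45 ± 0.327 CPM (SD, n = 3). The neighbours' medians were -0.33 for ARSA and -0.32 for ENPP7.

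Sphingolipid transport had 5 genes that rose, 3 that fell and 5 that did not pass of 13. SPNS2, the exporter of sphingosine 1-phosphate, had 7 counts in the control group and 230 in the antisense group, a log2 fold change of 4.98 (SE 0.51, adjusted p = 5.94e-05). ABCG2, an apical efflux pump, rose from 6.13 ± 0.552 to 23.8 ± 2.58 CPM (SD, n = 3), a log2 fold change of 1.96 (SE 0.11, adjusted p = 1.53e-06). ABCB1, the efflux pump P-glycoprotein, which can flip short-chain glucosylceramide, went from 205 ± 9.02 to 82.6 ± 1.88 CPM (SD, n = 3), a log2 fold change of -1.31 (SE 0.07, adjusted p = 8.27e-07). The apical pumps therefore moved in opposite directions.

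Receptors and further fates of sphingosine 1-phosphate had 3 genes that rose, 2 that fell and 2 that did not pass of 7. S1PR2 was the receptor with the most counts, at 3.07, 3.28 and 3.77 CPM against 3.04, 3.15 and 2.38 CPM, and did not pass (log2 fold change -0.24, adjusted p = 0.261). S1PR3 rose from 11 to 93 counts, a log2 fold change of 2.99 (SE 0.42, adjusted p = 0.000410). S1PR1 held 3 and 4 counts, S1PR5 held 2 and 0, and S1PR4 held 0 in both groups. PLPP2, a phosphatase that can dephosphorylate the lipid at the cell surface, rose from 8.39 ± 1.69 to 21.7 ± 1.40 CPM (SD, n = 3), a log2 fold change of 1.37 (SE 0.14, adjusted p = 5.15e-05). PLPP3, a related phosphatase named after its values were seen, stood at 86.9, 90.4 and 85.5 CPM against 44.8, 44.5 and 43.5 CPM and moved the other way, with a log2 fold change of -0.98 (SE 0.06, adjusted p = 3.87e-06). APOM, the plasma carrier of the lipid, rose with a log2 fold change of 0.62 (SE 0.12, adjusted p = 0.00229), and ALDH3A2, which acts on its cleavage product, fell by 0.18 on the log2 scale (adjusted p = 0.0365).

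The list on the supply and control of serine palmitoyltransferase, with serine synthesis and fatty acid elongation, had 5 genes that rose, 3 that fell and 7 that did not pass of 15. SLC1A4, a carrier of serine and other neutral amino acids, fell from 14.4 ± 1.43 to 6.18 ± 0.183 CPM (SD, n = 3), a log2 fold change of -1.22 (SE 0.10, adjusted p = 1.61e-05). In the list of further ceramide and sulfatide enzymes, ASAH2B rose, NAAA, an amidase of acylethanolamines related to acid ceramidase, fell from 13.2 ± 0.976 to 7.43 ± 0.244 CPM (SD, n = 3), and 3 of 5 did not pass. APOM, ALDH3A2, NAAA and ASAH2B were named after their values were seen.

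**Figure D5:**
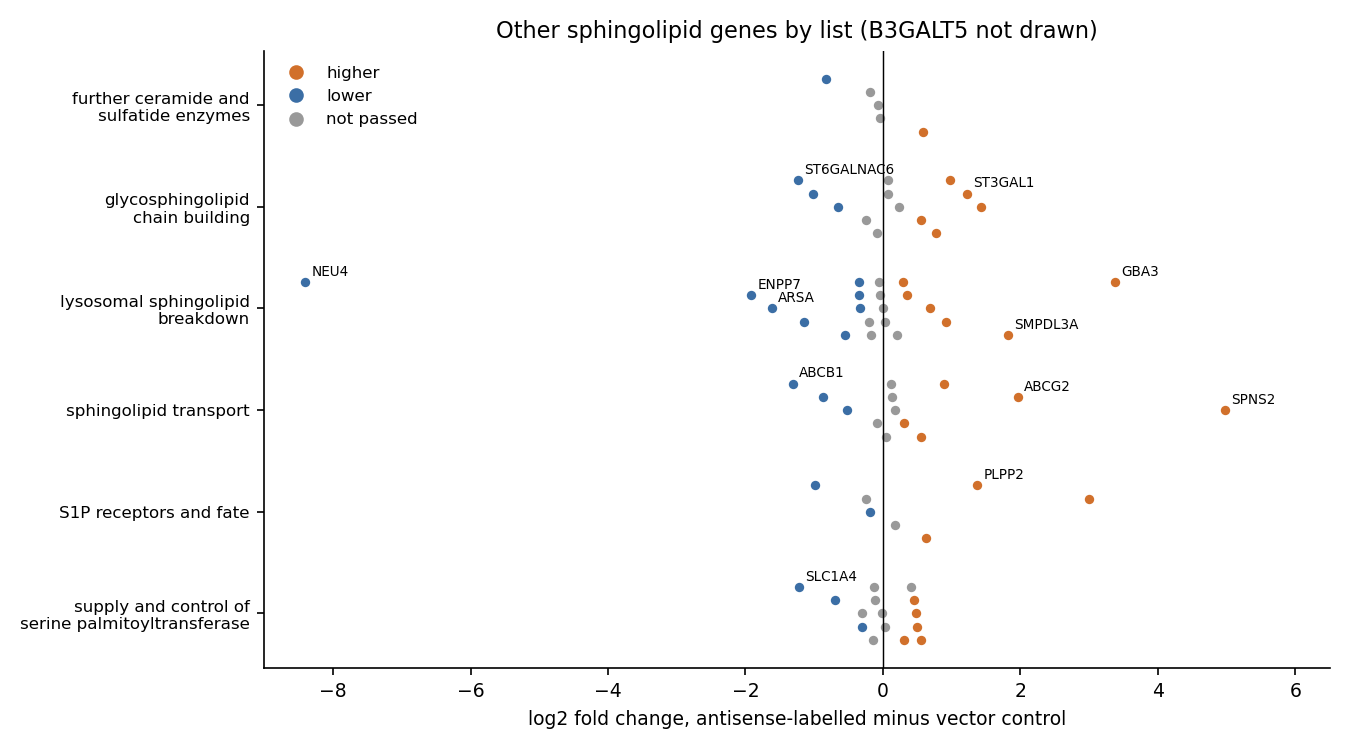
Log2 fold change (antisense-labelled minus vector control, x axis) of the tested genes of the 6 surrounding lists (y axis), 1 point per gene, coloured by call, with 12 of the genes named in the text labelled. Points that passed fall on both sides of 0 in each list, from NEU4 at -8.40 to SPNS2 at 4.98; B3GALT5, with 0 control counts, is not drawn.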

How the data were processed

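Read counts per gene in 6 libraries were analysed, as deposited by the authors and not normalized. TRIzol extraction and TruSeq Stranded mRNA libraries are given per the labels' protocols. Per the submitters' processing notes the build was GRCh37 and the tools included StringTie 1.3.4d, HISAT2 2.1.0 and Trimmomatic 0.38; for the counting step, the tool and its use of strand are not stated there. Since column names show only the group of a library, counts alone were used, and 12 further per-library columns were not.

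Counts were tested in R 4.3.3 with edgeR 4.0.16 (filterByExpr, TMM, glmQLFit, glmQLFTest), with Benjamini-Hochberg adjustment over 14640 genes and a threshold of 0.05. The fit was run on counts simulated from its own means and dispersions, with few changed genes. That run cannot show whether the real libraries are independent, or how the fit does when this many genes differ. CPM used TMM effective sizes, the SE is the absolute log2 fold change over the square root of F, and intervals are 95%. A group at 0 was set to a floor of 3 counts over the group, which covers counting error only. The biological coefficient of variation was 11.8%. Chi-square per degree of freedom between libraries within a group was 14.3 to 41.2, above counting noise.

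Genes, lists and tests were chosen with earlier results of these data known. Genes that passed with a mean of 1 CPM or more in a group are given per library. From the surrounding lists, the 14 furthest changes with non-overlapping groups at that level were selected, plus the receptors; 1 selected gene is not reported here. Transcript lengths and exon overlaps came from GENCODE v29, and gene order (14604 genes placed, 99.8%) and promoters from RefSeq GRCh38.p14, by symbol, since the files' build differs; no coordinates of the files' build are given. The promoter window, motifs and comparisons of a library with the rest of its group were chosen after values were seen. Alternatives were other scaling, filters and tests (DESeq2 1.42.0), a block on header numbers, and each library left out.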

Additional observations from a re-analysis of the deposited data

How the results depend on the processing

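The counts of genes that rose or fell stayed within 1.5 times of the reported ones in each of 12 alternatives. Leaving out each library gave 11 to 14 sphingolipid genes higher and 8 to 11 lower, 22 to 26 and 17 to 19 in the surrounding lists, 3510 to 4108 and 3449 to 3951 over all genes, and a log2 fold change of 0.05 to 0.27 for FABP1. With a replicate block on the header numbers, 11 sphingolipid genes were higher and 10 lower, with 3355 and 3306 over all genes; the numbers share no stated pairing, and same-numbered libraries deviated with correlations of 0.0409, -0.188 and -0.314. Of the 22 genes that passed, 19 kept their call in every alternative run, and CERS1, CERS5 and ASAH2 lost it in some. Of the 15 that did not, CERS3, DEGS2, UGT8, SMPD2, ORMDL2 and ORMDL3 passed in some, and 0 of the 37 reversed. CERS3 and SGPP2 gave no value under the stricter filter. Shares and ranks per kilobase depended on the transcript length used: with the median length CERS2 made up 72.8% of ceramide synthase level in antisense libraries, CERS6 2.98% in control and 6.998% in antisense, and SPTLC3 67.6% and 62.9% of the catalytic subunits, where the longest transcripts gave 25.8% and 22.1%. Depth limits CERS3 and SGPP2, with 60 counts or fewer in a group.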
